A study of Mus musculus with 3 samples.

Results

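Nuclear oxidative phosphorylation (OXPHOS) genes were followed through sorted cells, stages and cell classes of a mouse glioma. They were taken by symbol from the count table as the subunits of complexes I to V and the Ndufaf factors that assemble complex I, with pseudogenes left out. This gave 94 of 50262 rows, of which 36 belonged to complex I, 8 to its assembly, 4 to complex II, 8 to complex III, 20 to complex IV and 18 to complex V. Atp5o had 2 rows, the lower with 53 unique molecular identifiers (UMIs, tags that each stand for 1 captured mRNA), and the testis isoform Cox8c had 0 UMIs. The members held 670443 of 51168586 UMIs (1.31%), and a gene's or group's level is given in CPM, its UMI counts per 1000000 UMIs of the same cells.

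The respiratory chain passes electrons from NADH and succinate through complexes I and II, then III and IV, to oxygen, and ATP synthase (complex V) uses the resulting proton gradient to make ATP. Most subunits are nuclear genes whose proteins are imported into mitochondria, whereas a small set, the mt- genes, is transcribed from mitochondrial DNA, so the finished complexes draw on both genomes. Several complex IV subunits have tissue isoforms, the best known being those of heart and skeletal muscle.

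The cells came from brains of adult mice of mixed background and both sexes, in which a lentivirus carrying Cre was injected into the striatum. All groups carried a human wild-type EGFR transgene and a luciferase reporter that Cre switched, on a background without Cdkn2a, which host cells therefore lacked too. Viable cells were sorted into CD45+ (leukocytes) and CD45- (tumor, glial, vascular and neuronal cells) at the early, medium and large stages, the last called late here, and were encapsulated by inDrop. Each stage was 1 tumor sample, the early one pooled from 2, split over 24 libraries in 3 sequencing runs, with 4 libraries for each stage and sort. After filtering there were 17781 cells with a median of 2143 UMIs, and 5381839 to 10808099 UMIs for each tumor sample and sort. Libraries of a tumor sample are technical repeats. Between libraries, 1660 of 15845 cell barcodes were shared. Classes were named from marker genes as "-like", with members and mt- genes left out of clustering.

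The members' promoters were compared because many of these genes are read in every cell while a few are isoforms of particular tissues. RefSeq promoter sequence (GRCm38.p6, 250 bases before to 50 after the annotated start) was matched for 76 of 93 symbols, 71 ubiquitous subunits or assembly factors and 5 isoforms. The letters GCGCANGCG, a core of the site of nuclear respiratory factor 1 (NRF1), occurred on either strand in 22 of the 71 (31.0%), against 7.03% of 27025 promoters. AAGATGGCG, read by YY1, occurred in 8 of 71 (11.3%) against 1.64%. TCAAGGTCA, read by estrogen-related receptors (ERR), occurred in 2 of 71 (2.82%) against 0.466%, and CCGGAAGT, read by ETS factors such as GABPA, in 5 of 71 (7.04%) against 4.31%. None of the 4 was found in these windows of the 5 isoforms. Median CpG dinucleotides in the 250 bases before the start were 15 (4 to 35) for the ubiquitous genes, 8 (1 to 13) for the isoforms and 6 for all promoters. The 250 bases before the start are shown for ubiquitous subunits of complexes II and IV and for a pair of isoforms whose levels split by cell class below. Capitals mark letters of these motifs, and all lines read 5′ to 3′ on the strand of the gene. Sdha, the flavoprotein of complex II, is at chr13:74350241-74350490 (- strand), Cox6a1 at chr5:115348959-115349208 (- strand), Cox8a at chr19:7217617-7217866 (- strand), Cox8b at chr7:140900447-140900696 (- strand) and Cox7a1 at chr7:30183921-30184170 (+ strand).
Sdha: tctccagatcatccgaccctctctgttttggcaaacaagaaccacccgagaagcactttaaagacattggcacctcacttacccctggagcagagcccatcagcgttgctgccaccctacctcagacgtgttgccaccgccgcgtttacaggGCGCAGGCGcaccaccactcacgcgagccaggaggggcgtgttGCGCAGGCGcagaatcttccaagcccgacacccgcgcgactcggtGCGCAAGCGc
Cox6a1: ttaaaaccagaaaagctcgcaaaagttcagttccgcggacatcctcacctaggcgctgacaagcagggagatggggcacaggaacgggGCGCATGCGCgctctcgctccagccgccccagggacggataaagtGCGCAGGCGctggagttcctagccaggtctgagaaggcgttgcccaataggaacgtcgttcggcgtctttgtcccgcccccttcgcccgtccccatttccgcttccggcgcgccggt
Cox8a: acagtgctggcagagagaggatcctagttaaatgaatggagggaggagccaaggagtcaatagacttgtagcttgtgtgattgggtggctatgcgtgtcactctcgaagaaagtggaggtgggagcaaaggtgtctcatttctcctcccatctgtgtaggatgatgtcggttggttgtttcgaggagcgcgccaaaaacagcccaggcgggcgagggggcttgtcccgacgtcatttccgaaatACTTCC
Cox8b: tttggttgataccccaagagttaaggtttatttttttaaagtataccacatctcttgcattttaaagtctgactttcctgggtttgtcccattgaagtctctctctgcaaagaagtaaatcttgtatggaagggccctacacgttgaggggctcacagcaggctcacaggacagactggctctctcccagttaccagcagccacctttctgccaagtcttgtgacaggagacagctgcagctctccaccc
Cox7a1: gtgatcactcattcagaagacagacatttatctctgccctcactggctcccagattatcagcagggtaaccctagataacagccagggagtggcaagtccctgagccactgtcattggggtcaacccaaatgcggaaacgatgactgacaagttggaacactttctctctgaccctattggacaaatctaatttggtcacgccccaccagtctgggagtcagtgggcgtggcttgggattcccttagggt
The Sdha and Cox6a1 lines hold several NRF1 matches, and the capitals at the end of Cox8a are the part of an ETS match, read on the other strand, that lies before the start. The Cox8b and Cox7a1 lines hold no match, and Cox8b has 1 CpG against 11 in Cox8a.

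Nuclear OXPHOS transcripts took a different share of the RNA in each class. Choroid plexus-like cells, the epithelium that secretes cerebrospinal fluid, stood far above the rest at 39476 CPM over all stages. In the early sample their 4 CD45- libraries ranged from 41084 to 45268. Mural cell-like cells (pericytes and smooth muscle) followed at 18070 and astrocyte-like cells at 15594. Glioma- or oligodendrocyte progenitor-like cells (15053), ependymal-like (14490), fibroblast-like (14453), endothelial-like (14053), neuron-like (14053) and T cell-like cells (13524) lay close together, and the ranges over stages of the glioma- or progenitor-like (10829 to 15470), T cell-like (12126 to 14642) and neuron-like cells (12107 to 14408) overlapped. Oligodendrocyte-like cells were at 11620, border macrophage-like cells at 10638, and microglia-like cells (7609) and neutrophil-like cells (7332) were lowest. This order is of levels over all stages. In the early sample alone, glioma- or progenitor-like cells (10829) lay under oligodendrocyte-like (12182), T cell-like (12126) and neuron-like cells (12107). Choroid plexus-like and early microglia-like libraries (6870 to 7357) did not overlap. For the mt- genes, whose level differed by stage, classes were set side by side within the early sample. They were at 94390 CPM in ependymal-like, 88582 in astrocyte-like, 87912 in fibroblast-like and 84315 in choroid plexus-like cells, so choroid plexus-like cells did not stand apart in them. Where each cell was classed by its own markers without clusters, the mt- level over all stages was 38882 in astrocyte-like and 43416 in fibroblast-like cells, against 81146 and 66222 by cluster, so the values of these classes depended on how cells were classed. Early neutrophil-like cells had the lowest mt- level of the named classes (23298).

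**Figure D1:**
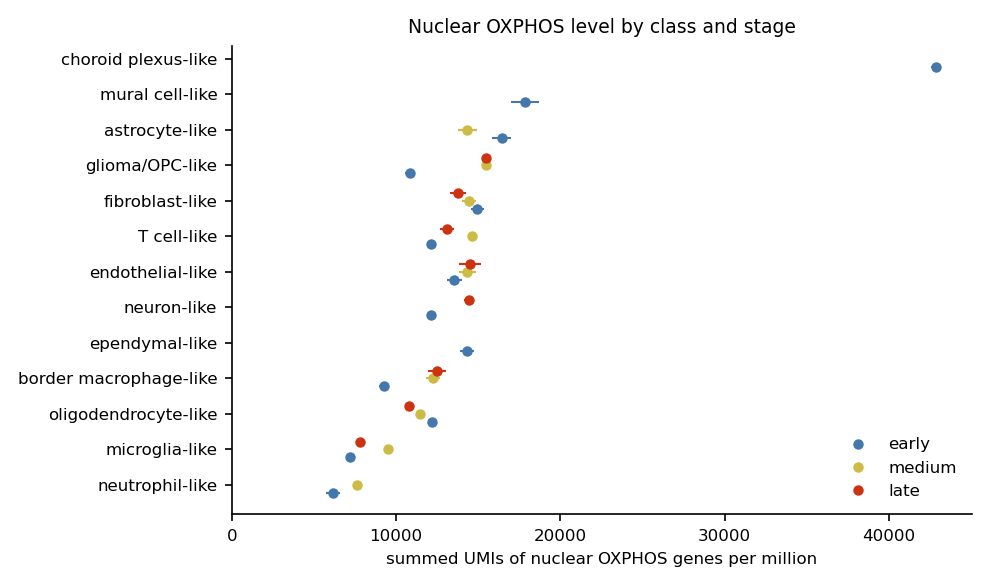
Summed CPM of the nuclear OXPHOS genes (x axis) in each marker-defined class (rows), 1 point for each stage with at least 50 cells, with bars for the exact Poisson interval (counting error only). Choroid plexus-like cells sit at 42853 in the early sample, and microglia-like and neutrophil-like cells at the low end.

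Within the early CD45- sort, nearly every member took a larger share in choroid plexus-like cells than in the other cells, and genes of all 5 complexes shared in it. Of 88 members with at least 50 UMIs, 83 were more than 1.5-fold higher and 2 more than 1.5-fold lower, where 20.7% of all genes were higher and 46.8% lower. The members' median log2 ratio was 1.64, that of the 13 mt- genes 0.36 and that of all genes -0.46. All 17 measured genes of complex V (median 2.01), all 8 of complex III (1.94) and all 4 of complex II (1.52) were past 1.5-fold, as were 34 of 36 of complex I (1.42) and 15 of 16 of complex IV (1.84). Atp5g1, which encodes 1 of 3 precursors of the c-ring subunit of ATP synthase, was at 1640 against 114 CPM. Its partners Atp5g3 (1640 against 317) and Atp5g2 (242 against 134), which encode the same mature subunit, had lower ratios. Ndufa1 (577 against 64.1) and Ndufv3 (516 against 60.8) of complex I and Uqcr10 (815 against 112) of complex III were also among the 8 highest ratios. Clusters are made from the same cells, so these are descriptions with no test.

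Microglia-like cells differed the other way from the remaining early CD45+ cells. None of 82 members was more than 1.5-fold higher (15.2% of all genes) and 37 were more than 1.5-fold lower (22.9% of all genes), with a median log2 ratio of -0.52 against -0.05 for all genes. The mt- genes had a median of 0.30 there, and none was past 1.5-fold. Of complex IV 10 of 13 members were past the fold, of complex V 9 of 16, of complex I 15 of 36, of complex III 3 of 8 and of complex II 0 of 4. The 3 highest ratios were those of Ndufs1, the largest subunit of complex I (0.53), Cox6a2 (0.45) and the assembly factor Ndufaf7 (0.43).

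The isoforms of complex IV subunits split by class. Cox8b, a tissue isoform of the smallest subunit, had 582 of its 607 UMIs (95.9%, exact 95% interval 94 to 97.3, counting error only) in choroid plexus-like cells, which were 2.19% of all cells. Its level was 254 CPM there and 9.54 CPM in border macrophage-like cells, the next class. The latter rested on few counts, with 9 UMIs in the early and 0 in the medium sample. Ubiquitous Cox8a was also highest in choroid plexus-like cells, at 2385, but had 395 in microglia-like cells. Choroid plexus-like cells likewise held 273 of 465 UMIs of Cox6b2, known as a testis isoform (58.7%), and 116 of 208 of Cox7a1, a muscle isoform (55.8%). For Cox6b2 the next class was fibroblast-like cells, with 37.2 CPM against 117.

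Mural cell-like cells, 0.720% of all cells, held 219 of 263 UMIs (83.3%) of Ndufa4l2, a hypoxia-inducible relative of Ndufa4. They also held 55 of 78 (70.5%) of Cox4i2, the oxygen-responsive isoform of subunit 4. Ndufa4l2 was at 837 CPM in these cells and 25.6 in fibroblast-like cells, the next class. Ndufa4 itself was highest in choroid plexus-like cells (1168) and lowest in microglia-like cells (116). Cox4i2 was at 207 in mural cell-like cells and 15.2 in astrocyte-like cells, and Cox4i1 at 1649 in choroid plexus-like cells.

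Cox6a2, the heart and muscle isoform of subunit 6A, was instead a transcript of CD45+ cells. Microglia-like cells, which were 76.3% of early, 20.7% of medium and 46.1% of late CD45+ cells, held 559 of its 1123 UMIs (49.8%), at 45.3 CPM. Its level was higher in 3 unnamed CD45+ clusters, at 142 in cluster 19 (led by immunoglobulin genes and Jchain), 103 in cluster 22 (led by division genes such as Mki67) and 57.9 in cluster 3 (led by Cxcl9). Cluster 19 also carried plasmacytoid dendritic cell markers, with a score of 3.73 against 4.29 for its first class, and so stayed unnamed. Oligodendrocyte-like cells, 2799 in both sorts, held 2 of its UMIs. Cox7a2l, which joins complexes III and IV into supercomplexes, was broad, from 447 in T cell-like cells through 342 in microglia-like cells to 175 in oligodendrocyte-like cells.

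**Figure D2:**
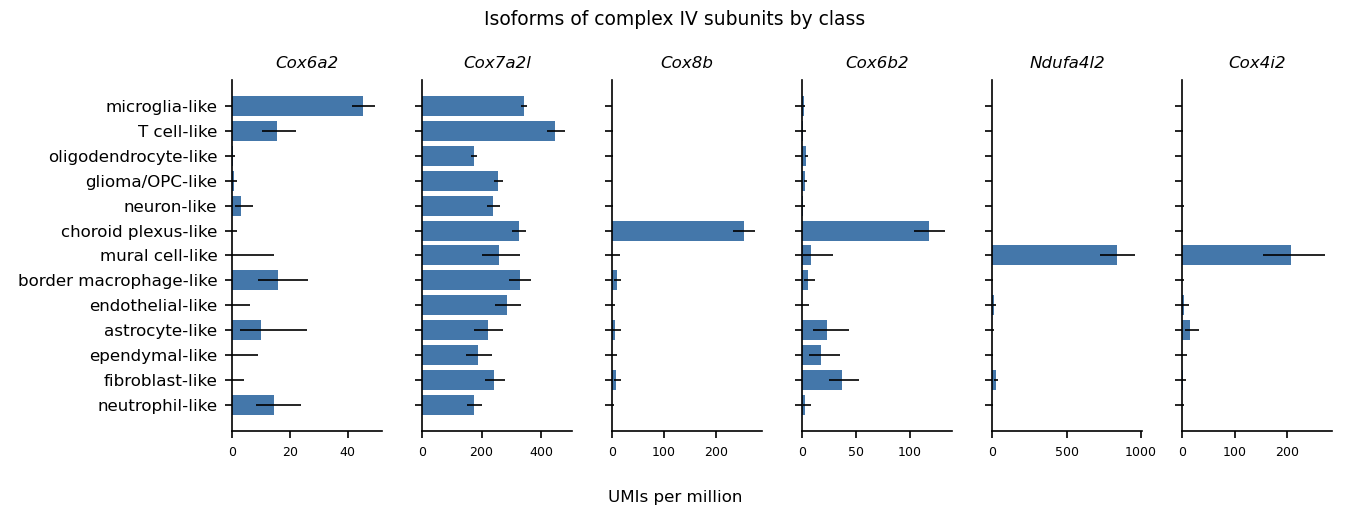
CPM (x axis, its own scale in each panel) of 6 complex IV genes by marker-defined class, stages summed, with bars from 0 and lines for the exact Poisson interval (counting error only). Cox8b and Cox6b2 peak in choroid plexus-like cells (254 and 117), Ndufa4l2 and Cox4i2 in mural cell-like cells (837 and 207), and Cox6a2 among the shown classes in microglia-like cells (45.3), whereas Cox7a2l is present in all.

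CD45+ and CD45- cells were then compared to ask which members differ between leukocytes and the rest of the tumor, with the 3 tumor samples as pairs. The sorts were not pure. Microglia-like cells were 8.37% of early, 4.43% of medium and 1.37% of late CD45- cells. Glioma- or progenitor-like cells were 2.59% of medium CD45+ cells. The part of such cells in the values was not tested. Most members did not pass the test. By the edgeR quasi-likelihood test with Benjamini-Hochberg adjustment over 18433 genes, 2 of 91 tested members were higher and 10 lower in CD45+ cells, whereas 20.4% of all genes were higher and 25.7% lower (46.1% either way). The members' median log2 fold change was -0.34 and that of all genes -0.04. Of the 13 mt- genes none was called, with a median of -0.19. At an unadjusted p under 0.05 (edgeR) there were 0 mt- genes and 22 of the 91 members, where 9862 of 18433 genes were. The members thus lay under the share of all genes there too. In such sums, fewer cells of a class and less RNA per cell cannot be told apart. P-values measure only how the difference between sorts varied over these 3 tumor samples, each of another stage. All 3 CD45+ values lay below all 3 CD45- values for 68 members (41.6% of all genes) and above them for 2 (16.2% of all genes).

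Both genes that were higher in CD45+ cells belong to complex IV. Cox6a2 (chr7:128205435-128206387) was at 42.0 CPM in early, 51.2 in medium and 22.5 in late CD45+ cells, against 4.07, 1.37 and 0.755 in CD45- cells. All CD45+ values were above all CD45- values, with a log2 fold change of 4.68 ± 0.42 (SE) and an edgeR adjusted p of 0.000264. Cox7a2l (chr17:83501918-83517330) was at 345, 336 and 308 against 236, 242 and 257, again with no overlap, and its log2 fold change was 0.79 ± 0.22 (edgeR adjusted p = 0.022). This call was lost without the early tumor (edgeR adjusted p = 0.068), without the medium tumor (0.132) and with no TMM factors (0.155). Fold changes include TMM scaling between libraries, which the printed levels do not.

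Of the 10 genes that were lower in CD45+ cells, 4 were the isoforms that marked choroid plexus-like or mural cell-like cells. Cox8b (chr7:140898945-140900446) was at 1.57 CPM in early, 0.308 in medium and 0.186 in late CD45+ cells, against 63.3, 5.95 and 3.21 in CD45- cells. Its CD45- level was far higher early than later, and the log2 fold change was -4.59 ± 0.42 (edgeR adjusted p = 0.000219). Ndufa4l2 (chr10:127514967-127517154) was at 0.370, 0.514 and 1.67 against 12.2, 12.3 and 6.14, a log2 fold change of -3.38 ± 0.64 (edgeR adjusted p = 0.005). Cox4i2 (chr2:152754173-152765037; 0.093, 0.514 and 0.929 against 3.58, 3.35 and 1.51) and Cox6b2 (chr7:4751792-4753094; 2.78, 3.29 and 3.72 against 29.6, 10.4 and 7.08) also did not overlap between sorts. Their log2 fold changes were -2.25 ± 0.76 and -1.68 ± 0.52 (edgeR adjusted p = 0.048 and 0.035). The call of Cox4i2 was lost with relative log expression factors (0.062), in all deposited cells (0.063), at a limit of 10% mitochondrial UMIs (0.052) and in DESeq2 (0.067), and that of Cox6b2 at the 10% limit (0.051). Cox7a1 went with them in value (-1.77) but not past the threshold (edgeR adjusted p = 0.076), and Ndufa4 (-0.76, 0.085) and Atp5g1 (-0.81, 0.135) did not pass either.

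Of the other 6 lower calls, 5 belong to complex I or its assembly and 1 to complex V. Ndufv1 (chr19:4007384-4012806), which binds NADH and flavin, was at 23.6, 29.0 and 27.7 CPM in CD45+ and 58.8, 59.0 and 54.6 in CD45- cells, a log2 fold change of -0.74 ± 0.20 (edgeR adjusted p = 0.018). Ndufv2 (chr17:66078638-66101559), the iron-sulfur subunit beside it, was at 48.9, 77.2 and 69.1 against 147, 129 and 144 (-0.76 ± 0.24, edgeR adjusted p = 0.037). Both are parts of the module that takes up electrons from NADH. Of 36 complex I members only these 2 were lower, where 25.7% of all genes were. The assembly factor Ndufaf2 (chr13:108002715-108158623) was at 14.5, 14.2 and 11.9 against 42.3, 43.1 and 45.3, with a log2 fold change of -1.32 ± 0.20 (edgeR adjusted p = 0.002). Of 8 assembly factors 3 were lower, near the 25.7% of all genes. Ndufaf5 (chr2:140170649-140203689) was at 3.52, 5.45 and 6.69 against 12.7, 17.4 and 13.8, and Ndufaf6 (chr4:11051045-11076205) at 3.42, 3.49 and 1.86 against 14.6, 8.23 and 5.76. Their log2 fold changes were -1.16 ± 0.29 and -1.30 ± 0.34 (edgeR adjusted p = 0.015 and 0.018). The remaining call was Atp5s (chr12:69724950-69744660), the coupling factor B of ATP synthase, at 3.79, 2.98 and 4.65 against 13.8, 12 and 7.84 (-1.20 ± 0.35, edgeR adjusted p = 0.027). In none of these did the sorts overlap. Without the early tumor Ndufv1, Ndufv2, Ndufaf5, Ndufaf6, Atp5s, Cox6b2 and Cox4i2 missed the threshold (edgeR adjusted p = 0.071 to 0.182). Without the medium tumor Ndufaf5, Atp5s, Cox6b2 and Cox4i2 missed it (0.060 to 0.142), and without the late tumor Ndufv1, Ndufv2 and Ndufaf6 did (0.056 to 0.098).

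The members with the most UMIs in complexes I to V were not called. They were Ndufa2 (0.10), Sdhc (-0.47), Uqcrh (0.19), Cox8a (-0.04) and Atp5a1 (-0.24 on the log2 scale). For Cox8a the values were 417 CPM in early, 687 in medium and 649 in late CD45+ cells, against 859, 687 and 730 in CD45- cells, so the sorts differed in the early sample and met in the medium one. By complex the medians were -0.35 for I, -0.56 for I assembly, -0.34 for II, -0.44 for III, -0.32 for IV and -0.17 for V, with 0 calls in complexes II and III (edgeR; at an unadjusted p under 0.05, 0 and 1). With the tissue isoforms and Cox7a2l left out, 6 of 84 members were lower and 0 higher.

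These counts leaned on the early tumor and on choroid plexus-like cells, which were 10.3% of its CD45- cells and 3.06% and 2.16% in the medium and late ones. Without the early tumor sample 3 members were lower, 1 was higher, and the members' median was 0.01, where 38.1% of all genes were called either way. Without the choroid plexus-like cells, a setting chosen after seeing the data, 6 were lower and 2 higher, and the median was -0.11, with 46.5% of all genes called. Ndufaf6 (-0.53, edgeR adjusted p = 0.247), Cox6b2 (-0.53, 0.247) and Ndufv2 (-0.58, 0.051) then missed the threshold, and Cox8b had too few UMIs to be tested. With no TMM factors 43 members were lower and 1 higher, with 49.6% of all genes called, and the median of all genes moved from -0.04 to -0.40.

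**Figure D3:**
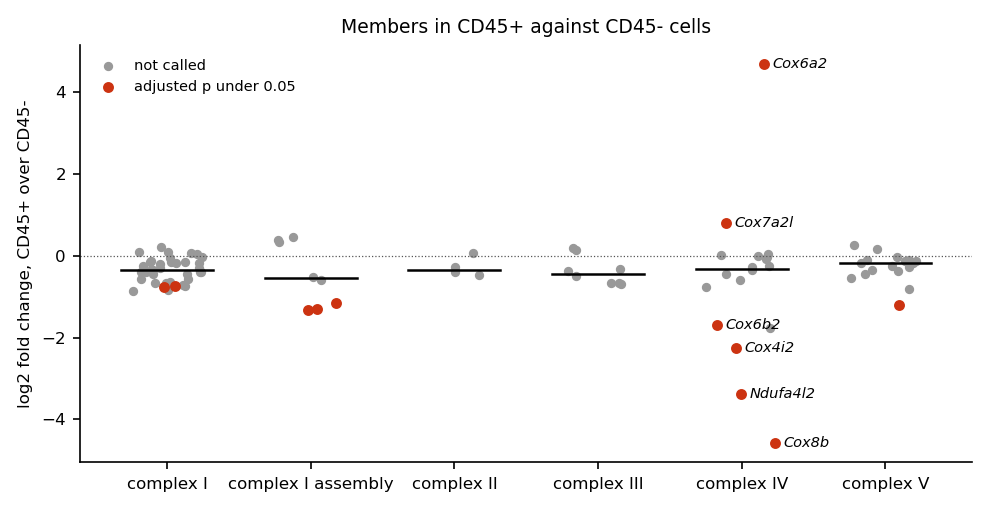
Log2 fold change of each tested member, CD45+ over CD45- (y axis), by complex, with a line at each median; red points passed the edgeR test at an adjusted p under 0.05. Most members lie just under 0, and the isoforms of complex IV span from -4.59 (Cox8b) to 4.68 (Cox6a2).

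The stages were compared to ask whether the stage difference of the mt- genes holds for the nuclear subunits. It did not run in parallel. In CD45+ cells the nuclear members were at 7969 CPM early, 12418 at the medium stage and 11574 late, while the 13 mt- genes were at 41146, 30795 and 25601. In CD45- cells the nuclear members were at 18011, 15078 and 14770, and the mt- genes at 70212, 50979 and 29597. The mt- share was thus lower at each later stage in both sorts, whereas the nuclear share was higher later in CD45+ cells and lower later in CD45- cells. Libraries of the early and late samples did not overlap in any of the 4. Nuclear members ranged from 7533 to 9520 and from 10612 to 15962 in early and late CD45+ libraries, and from 16715 to 18516 and from 14146 to 15173 in CD45- libraries. A late CD45+ library of 17 cells is left out of these ranges. With 1 tumor sample a stage there is no test, and stage and tumor cannot be told apart.

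**Figure D4:**
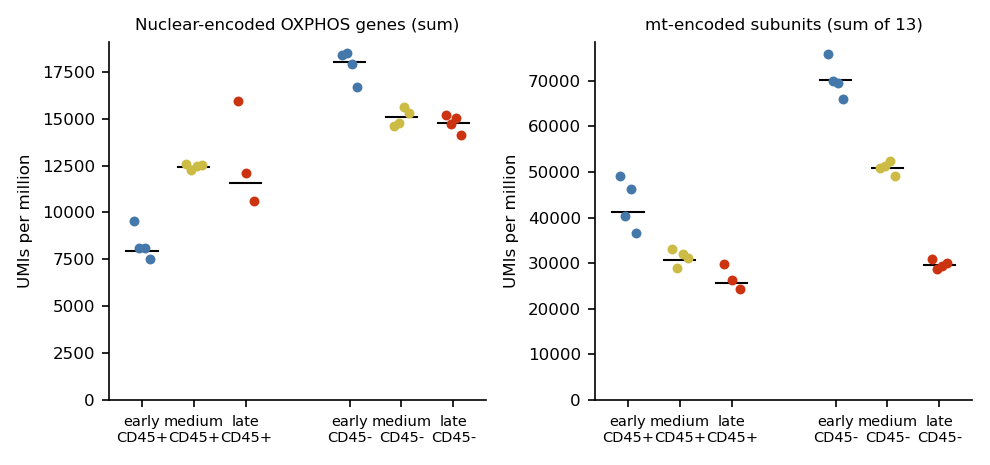
CPM (y axes) of the nuclear OXPHOS genes (left) and the 13 mt- genes (right) in each library (points) by sort and stage, with lines for the summed sample. The mt- genes step down from early to late in both sorts, to 25601 in CD45+ and 29597 in CD45- cells, and the nuclear genes do so in CD45- cells only (18011 to 14770).

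Gene by gene, 39 of 85 measured members were more than 1.5-fold higher and 1 lower in late than in early CD45+ cells (14.8% and 9.04% of all genes), with a median log2 ratio of 0.54 against 0.07 for all genes. Of the mt- genes 9 of 13 were past 1.5-fold lower (median -0.65). Atp5o, a stalk subunit of ATP synthase, had the highest ratio (1.31), followed by Atp5k (1.27) and Uqcr10 (1.11), and Cox6a2 the lowest (-0.90). In CD45- cells 17 of 88 members were more than 1.5-fold lower and 0 higher (15.1% and 28.7% of all genes), with a median of -0.28 against 0.21, and all 13 mt- genes were lower (-1.26). The lowest ratios were those of the genes high in choroid plexus-like cells, Cox8b (-4.28), Cox6b2 (-2.06), Cox7a1 (-1.97), Ndufaf6 (-1.33) and Atp5g1 (-1.04). Without choroid plexus-like cells, the nuclear median in CD45- cells turned to 0.20, equal to that of all genes, and the mt- median was -1.15. Other class shares of the CD45- sort moved as well. Unnamed cluster 10 (led by Itga8, with Thbs2 and Tnc) was 0.147% of early, 0.811% of medium and 23.4% of late CD45- cells. Glioma- or progenitor-like cells were 6.20%, 18.8% and 26.8%, and oligodendrocyte-like cells 50.4%, 41.2% and 30.6%. Class shares moved in the CD45+ sort too. Microglia-like cells were 76.3% of early, 20.7% of medium and 46.1% of late CD45+ cells, cluster 3 (led by Cxcl9) 2.34%, 29.7% and 0.995%, and cluster 8 (led by Arg1 and Spp1) 1.36%, 3.39% and 27.9%. The part of these shares in the values of either sort was not tested, and ratios within classes are given next.

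Within microglia-like cells the nuclear members were near their early level in the late sample. They were at 7182 CPM early, 9486 at the medium stage and 7770 late, and the mt- genes at 42739, 36901 and 27098. Of 82 members 3 were more than 1.5-fold higher and 1 lower late over early (10.6% and 6.21% of all genes), the median log2 ratio was 0.11 against 0.09 for all genes, and 8 mt- genes were lower (median -0.60). Ndufc1 (39.7 to 79.0 CPM), Atp5o (29.3 to 48.1), Ndufv3 (42.7 to 67.9), Uqcrc2 (56.0 to 79.5) and Ndufs1 (74.5 to 104.8) had the highest ratios. Cox6a2 (45.2 to 25.3), Ndufs8 (45.8 to 30.4), Ndufaf2 (14.5 to 9.62), Ndufv1 (21.9 to 16.2) and Ndufs6 (56.6 to 43.6) had the lowest. The mt- genes ran from -0.96 (mt-Nd2) to -0.08 (mt-Nd3). The nuclear median was 0.26 within run 2 and -0.02 within run 3, 0.00 without the late run 2 library and 0.28 without the late run 3 library, so its sign was not settled. Between the medium and early samples it was 0.41, with 26 of 82 members more than 1.5-fold higher and 0 lower (8.11% and 14.8% of all genes), and libraries of the medium sample (9096 to 10159) did not overlap with the early ones (6870 to 7357). Clusters of the class differed by stage. Cluster 1 held 33.8% of early, 40.2% of medium and 19.4% of late microglia-like cells, cluster 2 held 22.3%, 5.82% and 45.6%, and cluster 12 held 4.02%, 24.2% and 5.34%. The heat-shock genes Hspa1b and Hspa1a led cluster 4, and Tnf and Il1a led clusters 6 and 17.

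T cell-like cells had a nuclear level of 12126, 14642 and 13115 CPM and an mt- level of 31769, 26520 and 19017. Late over early, 7 of 69 members were more than 1.5-fold higher and 3 lower (14.8% and 15.1% of all genes), with medians of 0.15 for the members, 0.01 for all genes and -0.65 for the mt- genes, 11 of which were lower. The members' median was 0.28 without the early run 2 library and 0.040 without an early run 3 library of 1751 CD45+ cells. It lay between these with any other of the 6 libraries that could be left out. Leaving out any further library put a stage under the limit of 100 cells, so the median without it is not known. Ndufa10 (0.87) and Uqcrb (0.86) were highest and Ndufa1 (-0.88) lowest, each on under 100 UMIs. Oligodendrocyte-like cells went from 12182 through 11440 to 10793 in nuclear and from 65622 through 49992 to 28040 in mt- level. Of 82 members 1 was more than 1.5-fold higher and 4 lower (14.7% and 6.15% of all genes), with a median of -0.16 against 0.15 for all genes. In all deposited cells, before filtering, the members' median was 0.051, on the other side of 0. The assembly factor Ndufaf7 was highest (1.08), then Atp5b, the catalytic subunit of ATP synthase (0.42), and Atp5mpl (-0.73), Ndufs8 (-0.69) and Ndufaf4 (-0.62) were lowest. The mt- median was -1.19, from -1.47 (mt-Cytb) to -0.51 (mt-Atp8).

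Neuron-like cells were at 12107 and 14408 CPM in the early and late samples, with 15 of 79 members more than 1.5-fold higher and 2 lower (22% and 13.8% of all genes). The median was 0.29 against 0.13 for all genes, and the mt- median was -0.90. Atp5k (0.99) and Ndufa11 (0.94) had the highest ratios and Ndufa9 the lowest (-1.19, 17 UMIs late). A cluster led by Dlx2 and Dlx1 made up 36.3% of the early and 10.4% of the late neuron-like cells.

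The glioma- or oligodendrocyte progenitor-like class had the highest nuclear ratio, but held different cells by stage. The nuclear members were at 10829 CPM early, 15466 at the medium stage and 15470 late, and the mt- genes at 51786, 41382 and 29020. Late over early, 30 of 82 members were more than 1.5-fold higher and 2 lower (23.8% and 23.3% of all genes), with a median of 0.47 against 0.00 for all genes. By complex the medians were 0.73 for V (11 of 16 past the fold), 0.58 for IV (6 of 12), 0.39 for III, 0.36 for I and 0.22 for II. The 5 highest ratios were those of Atp5e (1.61), Atp5o (1.41), Uqcr11 (1.23), Atp5f1 (1.23) and Cox7a2 (1.21), and the lowest those of the assembly factors Ndufaf4 (-1.05) and Ndufaf5 (-0.65). The human EGFR transgene was at 2061 and 2588 CPM in the medium and late cells. In the 169 early cells it had 0 UMIs, which allows up to 6.71 CPM (3 counts). Cluster 20 held 75.7% of the early and 9.06% of the late cells of the class, and cluster 5 held 90.9% of the late ones. Cytosolic ribosomal protein genes, a list added after seeing the data, had a median ratio of 1.62 in the same cells, with 74 of 76 more than 1.5-fold higher. Both clusters held cells of both stages, but cluster 5 had 41 early and cluster 20 had 55 late cells, under the limit of 100. No ratio within them was taken, so stage and the change of cells from cluster 20 to cluster 5 were not separated.

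By level, most of the nuclear difference of both sorts and of glioma- or progenitor-like cells lay between the early and medium samples. This did not hold in every class. The level was lower at each step in oligodendrocyte-like cells, and in microglia-like cells it came back near its early value. Medium over early, 46 of 87 members were more than 1.5-fold higher and 0 lower in CD45+ cells (17.9% and 20.4% of all genes), and 0 of 89 higher and 9 lower in CD45- cells (17% and 10.9%). The count of lower members in CD45- cells was thus near the share of all genes. In glioma- or progenitor-like cells 33 of 80 were higher and 1 lower (21.3% and 21.3% of all genes; median log2 ratio 0.53), with libraries at 10351 to 11754 CPM early and 14655 to 16238 at the medium stage. This class held different cells at the 2 stages here too. Cluster 20 was 75.7% of its early and 26.5% of its medium cells, and EGFR was found in 0% and 62.6% of them. Stage and this change of cells were not separated. Medians were above 0 in unnamed CD45+ clusters 3 and 9 too. In cluster 3 the count was 33 higher and 1 lower of 80 (18.6% and 22.8% of all genes, median 0.47). Cluster 9 had 16 higher and 1 lower of 75 (17.2% and 10.1%, median 0.36), where the count of higher members lay near the share of all genes. The leading genes of cluster 9 included markers of dendritic cells (Xcr1 and Itgae) and of monocytes (Ly6i, Ms4a4c and Ccr2). In border macrophage-like cells 21 of 57 were higher and 0 lower (16.4% and 13.2%; median 0.41), and in T cell-like cells 10 of 75 and 1 (15% and 13.8%; median 0.27). Endothelial-like cells had 7 higher and 3 lower of 51 (14.2% and 11.1%; median 0.07), and oligodendrocyte-like cells 2 and 3 of 83 (12.4% and 5.44%; median -0.07). In T cell-like, endothelial-like and oligodendrocyte-like cells these counts lay near or under the share of all genes. The mt- medians were below 0 in each of these sorts, classes and clusters, from -0.47 (CD45- cells) to -0.08 (cluster 9).

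Between the medium and late samples the share of members more than 1.5-fold lower was above that of all genes in microglia-like cells, where 1 of 80 was higher and 16 lower (17.2% and 6.66% of all genes; median -0.30). Elsewhere the counts lay near or under the share of all genes. In T cell-like cells 1 of 74 was higher and 11 lower (16.4% and 15.4%; median -0.14). Glioma- or progenitor-like cells had 0 of 82 either way (11.4% and 9.18%), oligodendrocyte-like cells 2 higher and 1 lower of 81 (7.35% and 6.68%), and cluster 8 had 4 higher and 9 lower of 78 (18.8% and 10.6%). In CD45+ cells 3 of 85 were higher and 4 lower (18.1% and 10.9%), and in CD45- cells 0 of 88 and 3 (15.5% and 9.73%). The mt- genes still differed in CD45- cells, with 10 of 13 past 1.5-fold lower (median -0.72), and in oligodendrocyte-like cells, with 8 of 13 (-0.81). In CD45+ cells the differences were smaller. There mt-Nd3, mt-Atp8 and mt-Nd4l were higher late, and all other mt- genes were lower. For example, mt-Co1 went from 4616 at the medium stage to 3287 CPM late, but mt-Nd3 from 493 to 687. In cluster 8 the log2 ratio was lowest for mt-Nd2 (-0.86). It was above 0 only for mt-Nd3 (0.29) and for mt-Atp8 (0.68, on 20 UMIs at the medium stage).

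Across the 5 classes measured late and early, 69 members had enough UMIs in each. None of them was more than 1.5-fold higher in all 5, and none was lower in all 5, but of 2215 genes measured in all 5 only 0.497% and 0.632% were, so these counts of 0 lie near the share of all genes. Of the 13 mt- genes, 6 were more than 1.5-fold lower in all 5, namely mt-Nd2, mt-Nd4, mt-Cytb, mt-Co1, mt-Co3 and mt-Atp6, which are subunits of complexes I, III, IV and V. The ratio was above 0 in all 5 classes for 5 members and below 0 for 1, Ndufc2 (12.1% and 3.39% of all genes), against 12 of 13 mt- genes below 0. Cells with over 20% mitochondrial UMIs were removed at all stages, which limits the mt- levels. The cell filters did not take an equal share at each stage. In run 2 CD45- libraries, 836 of 1289 cells passed early, 494 of 789 and 376 of 638 at the medium stage and 577 of 631 late. The part of this in the mt- ratios was not tested. Median mitochondrial shares of the kept oligodendrocyte-like cells were 7.39% early, 5.82% at the medium stage and 3.15% late.

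**Figure D5:**
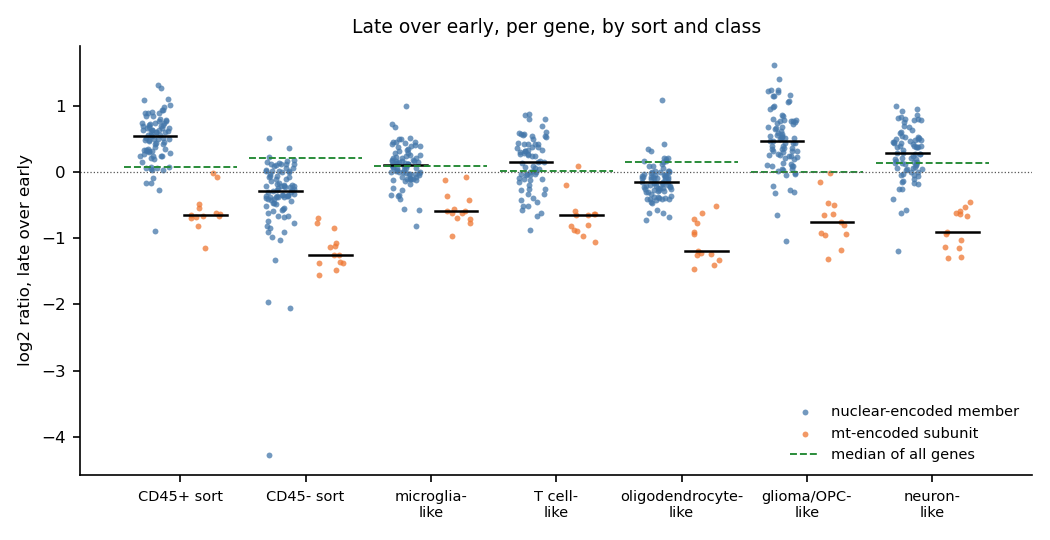
Log2 ratio of late over early CPM for each gene (y axis), in each sort and in the 5 classes with at least 100 cells in both stages; blue, nuclear members; orange, mt- genes; black lines, their medians; dashed lines, the median of all genes. The mt- medians lie from -1.26 to -0.60, and the nuclear medians from -0.28 to 0.54, on both sides of 0.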

How the data were processed

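The authors mapped inDrop reads with RapMap in bcbio-nextgen to the GRCm38 transcriptome (Ensembl) with transgenes added and called cells against empty droplets. They deposited raw, unnormalized UMI counts and a library annotation of another kind (unit: other) that gives the run, sort and stage of each library. Whether the removal of ambient RNA and doublets that the study describes preceded deposit is not given in the sources used here. How UMIs shared with near-identical pseudogenes were assigned is not given either; 13 rows of the pattern were left out (12 pseudogenes and Ndufb1-ps). Normal brain samples were not analysed here, and a further allele of the model is not reported here.

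Members and gene lists were chosen with earlier results of these data known. Of 20811 deposited cells, those with at least 500 UMIs, at least 500 genes and at most 20% mitochondrial UMIs were kept. Scrublet was run in libraries of at least 100 cells, and the 113 cells it called (0.635%) were removed. That is a low rate, and an alternative kept them. Cells were clustered with scanpy 1.11.5 and the Leiden algorithm (2000 variable genes, 40 components, 20 neighbours, resolution 1), leaving out the members, mt- genes and pathway lists. A cluster was named where at least 4 fixed markers were 2-fold higher and present in 10% of its cells, and no second class had over 50% of its score. These limits were chosen after the clusters were seen, and 4285 cells stayed unnamed. No named cluster had more markers of another class than of its own among its 10 leading genes. These genes are ranked by the fold values used for naming, so this is no separate check. Clusters 6 and 12 (microglia-like), 20 (glioma- or progenitor-like), 29 (neuron-like) and 31 (endothelial-like) had 0 markers of either kind among them.

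Counts were summed per tumor sample and sort and tested with edgeR 4.0.16 (quasi-likelihood, TMM factors 0.835 to 1.21, filterByExpr, two-sided, Benjamini-Hochberg, threshold 0.05) with tumor sample as a block, leaving 2 residual degrees of freedom. The sorts of a tumor sample come from the same tissue (for the early sample, the pool of 2). Their deviations from the sort means correlated across genes at 0.384, 0.280 and 0.302. The script was tested on simulated counts. DESeq2 1.42.0 was an alternative, as were other scaling, filters, cell sets and left-out samples or libraries. Stages and classes were described, not tested: log2 ratios of CPM had a prior of 0.5 counts, genes needed 50 UMIs over both groups, and intervals are exact Poisson or Clopper-Pearson at 95%, for counting error only. Levels over all cells of a class used its CD45+ or CD45- sort, and shares of UMIs and cells used both sorts. Coordinates are from GENCODE M21 (GRCm38).

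Genes named in the text were the called members of the sort comparison (up to 10 each way), the member with the most UMIs in each complex, the 5 highest and lowest stage ratios in a class (fewer are printed in some), the tissue isoforms with their partners, any gene past 1.5-fold in every class, and at most 4 called genes of each other list. Names in the choroid plexus-like comparison and of the microglia-like cells against other cells, and the leading genes of clusters, were chosen after their values were seen.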

Additional observations from a re-analysis of the deposited data

Results flagged for a closer look

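In 4 of 50 sets of 4 libraries, 1 library lay far from the other 3, where chance gives about 1 in 20. In early glioma- or oligodendrocyte progenitor-like cells, the mt- level was 44655 CPM in a run 3 library of 31 cells against 53139 to 53637 in the others, and in the late cells it was 29972 in a run 1 library against 28470 to 28629. In early microglia-like cells, the nuclear OXPHOS level was 6870 in a run 3 library against 7296 to 7357. In late neuron-like cells it was 13833 in the run 2 library against 14549 to 14658.

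The nuclear members had late over early medians of opposite sign in the sorts. The median log2 ratio late over early was 0.54 in CD45+ and -0.28 in CD45- cells, and medium over early it was 0.62 and -0.23. Without choroid plexus-like cells the late over early median in CD45- cells was 0.20, of the same sign as in CD45+ cells. Early and later libraries did not overlap in either sort, and the difference between the sorts was not tested.

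The 13 rows of the pattern that were left out as pseudogenes or non-coding RNA held 18984 UMIs, 2.83% of the members' total.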

How the results depend on the processing

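Counts of the sort comparison moved most with scaling and with the early tumor. With no TMM factors 1 member was higher and 43 lower, with every gene of at least 1 count kept 16 were lower (29.8% of all genes called either way), and without choroid plexus-like cells (chosen after seeing the data) 6 were lower. Leaving out 1 tumor sample gave 1 to 2 higher and 3 to 10 lower (37.5% to 38.1% of all genes called). With no replicate block 2 were higher and 9 lower (42.7% of all genes called), and the call of Ndufaf6 was lost (edgeR adjusted p = 0.062). Cox6a2, Cox8b, Ndufa4l2 and Ndufaf2 passed in every setting in which they were tested. Cox4i2 and Ndufv2 each missed the threshold in several (Ndufv2 with relative log expression factors, in all deposited cells and in DESeq2 among them), with adjusted p of 0.051 to 0.182 there under edgeR or DESeq2. For late over early medians in CD45- cells, the mt- value was -0.91 at a limit of 10% mitochondrial UMIs, -1.15 without choroid plexus-like cells, -0.96 as a mean over cells, -1.37 within run 1 and -1.11 within run 3. The nuclear value was -0.070 in all deposited cells, -0.17 as a mean over cells and 0.20, on the other side of 0, without choroid plexus-like cells. In oligodendrocyte-like cells the mt- value was -1.69 in all deposited cells, -1.02 within run 2 and -1.05 within run 3, and the nuclear value 0.051 in all deposited cells. In glioma- or oligodendrocyte progenitor-like cells the mt- value was -0.55 as a mean over cells, and -0.86 to -0.59 with 1 library left out. Of the late over early medians recalculated under these settings, 117 moved by less than the spread of libraries and the others, printed here, by more; with 1 library left out, 105 moved by less and 3 by more. Besides the nuclear medians of CD45- and oligodendrocyte-like cells above, that of microglia-like cells changed sign, to -0.02 within run 3 and -0.0040 as a mean over cells. Nuclear class levels moved past their spread over stages (or, with 1 stage, their counting interval) in 10 cases under other settings and in 4 with a tumor sample left out, none by more than 1.5 times; that of choroid plexus-like cells ran from 32055 CPM without the early tumor to 43473 over nuclear-encoded UMIs. The cause of these shifts was not tested. Early choroid plexus-like cells set the only sample of that class with over 50 cells.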

Other observations

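Genes around the respiratory chain were followed with the same sort test, in which 20.4% of all genes were higher and 25.7% lower in CD45+ cells. No list's count is read as a change of the list. Of 18 regulators of mitochondrial biogenesis, 5 were higher and 2 lower in CD45+ cells. Ppargc1a, a coactivator of oxidative genes, was at 1.30, 0.617 and 2.97 CPM in CD45+ cells of the early, medium and late samples, against 25.7, 15.5 and 12.3 in CD45- cells (log2 fold change -3.24 ± 0.54, edgeR adjusted p = 0.003). Gabpb1, a partner of GABPA, was at 37.5, 25.7 and 20.3 against 10.9, 6.71 and 15.1 (1.74 ± 0.34, edgeR adjusted p = 0.006). The mitochondrial RNA polymerase gene Polrmt was lower (-0.96) and Pprc1 higher (0.81). Of 16 genes of the TCA cycle 2 were higher and 4 lower. Sucla2 and Suclg2, which encode the ATP- and GTP-forming subunits of succinyl-CoA synthetase, went opposite ways (-1.24 and 1.05), and Idh3a (-1.23) and Dlat (-0.95) were lower.

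Of 16 genes for cytochrome c, coenzyme Q and electron transfer flavoprotein, 3 were lower and 0 higher (25.7% and 20.4% of all genes). The largest fall was that of Coq8a (-1.79 ± 0.21, edgeR adjusted p = 0.000478). Assembly factors outside the OXPHOS symbols gave 2 higher and 3 lower of 35, among them Coa5 of complex IV (1.12), Sdhaf1 of complex II (-1.46), Atpaf1 of complex V (-0.84) and Ecsit of complex I (-0.74). Outer membrane and import genes gave 0 higher and 4 lower of 20, namely Timm8b (-0.93), Timm17a (-0.78), Vdac1 (-0.68) and Vdac3 (-0.66).

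Late over early in microglia-like cells, the medians of these lists lay between -0.14 (cytochrome c and coenzyme Q) and 0.18 (TCA cycle). In CD45- cells the import list was at 0.39 and the regulators at 0.39, against 0.21 for all genes, -0.28 for the nuclear OXPHOS genes and -1.26 for the mt- genes.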
